A study of Mus musculus with 6 samples.

Results

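The genes described here are 2 FOXO transcription factors, Foxo1 and Foxo3, and 8 genes that FOXO factors switch on or that PI3K signalling keeps low, namely Ccng2, Trp53inp1, Ulk1, Sesn1, Pik3ip1, Irs2, Cited2 and Klf2. They were chosen by name, with earlier results of these data known, and read through every probe set annotated to 1 of these symbols alone. Of the 10 genes, out of 12393 with such a probe set on the array, 9 were represented, by 20 probe sets in all, and Pik3ip1 was not analysed here. The cells were Ba/F3, a mouse pro-B line that depends on interleukin 3 (IL3) unless an active kinase takes its place. One line carried the empty retroviral vector pMSCV and was kept in IL3. The other lines carried pMSCV with ETV6-PDGFRB or with FIP1L1-PDGFRA, fusion genes that encode constantly active PDGF receptor kinases, and were labelled as selected. The sample labels name IL3 for the vector line alone and do not say what the selection was for. From each line there was an untreated culture and a culture exposed for 4 h to imatinib (Glivec) at 100 nM, a drug that blocks a few tyrosine kinases including the PDGF receptors. Every culture was in medium with 10% serum. In these vectors the viral promoter drives the fusion gene, and the labels do not say whether a line was 1 clone.

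FOXO proteins are transcription factors that PI3K signalling controls mainly through their place in the cell. Growth factor receptors activate PI3K, PI3K activates the kinase AKT, and AKT phosphorylates FOXO proteins so that 14-3-3 proteins hold them in the cytoplasm. When PI3K signalling stops, FOXO proteins enter the nucleus and switch on genes of cell cycle exit, autophagy, stress defence and, as a feedback, of the insulin and PI3K pathway itself.

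The values were linear MAS5 signals from 6 arrays, 1 for each combination of line and treatment. No ratio within a line has a replicate check, so precision is limited by how few arrays there are. Signals under a floor of 20.1, taken as the median of the arrays' 50th percentiles, were set to the floor, and a gene below it on both arrays of a pair has no ratio. A probe set's level says nothing about the level of another gene, so levels are compared only within a probe set. The arrays had 3' to 5' signal ratios of 1.12 to 1.22 for actin and 0.754 to 0.802 for Gapdh. Of 11 pro-B markers with a probe set, only Cd79a and Cd79b were above the floor on all 6 arrays, and 8 markers, among them Pax5, Ebf1, Rag1 and Il7r, were below it on all of them. The IL3 receptor genes Il3ra, Csf2rb and Csf2rb2 were above the floor on every array.

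Imatinib raised 5 of the 6 measured members in the fusion cells and lowered Cited2. The 5 were the quiescence cyclin gene Ccng2, the autophagy genes Trp53inp1 and Ulk1, the factor gene Foxo3 and the stress gene Sesn1. The words rose and fell are used where limma, with both fusion lines taken as repeats and the line as a block, gave a Benjamini-Hochberg adjusted p under 0.05 over all 6808 genes tested. By that rule 13.5% of all genes rose and 12.4% fell, 25.8% in all, so calls were common over the genes tested. The median log2 change of the 6 was 0.99, against 0.04 over all genes. Its size depended on the processing. It was 0.67 with the mean of probe sets, and 0.73 among 7 members with the floor at the 40th percentile. With a pseudocount of 20 and no floor it was 0.57 among 9 members. Since the members were chosen with earlier results of these data known, the gap to all genes is a description and no test of a group response. The members that passed the floor are 6 of the 10, and nothing can be said of the others. With either fusion line left out the fit has 1 residual degree of freedom and gave 0 calls among all genes, so it cannot say which line carried a call. The log2 change of Ccng2 was then 1.99 or 2.14 and that of Trp53inp1 1.37 or 1.79. In bulk RNA, a change in the share of cells and a change of RNA per cell cannot be told apart.

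**Figure D1:**
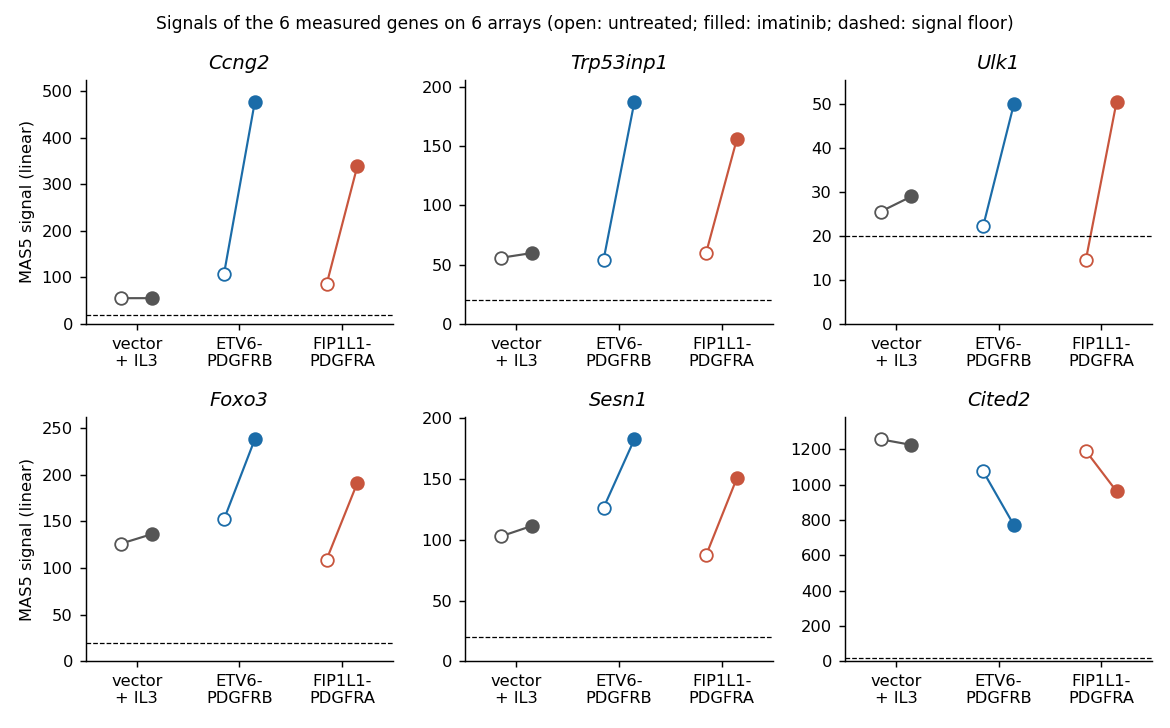
Signal of each measured gene (linear MAS5 units, axes from 0) on the 6 arrays, by line, with the untreated array as an open point joined to the imatinib array as a filled point and the signal floor dashed. In both fusion lines 5 genes lay higher with imatinib and Cited2 lay lower, while the vector pairs were nearly level.

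Ccng2 encodes cyclin G2, an unusual cyclin that is high in resting cells and acts against cell division. Its signal was 55.5 in untreated vector cells and 55.6 in vector cells given imatinib. In ETV6-PDGFRB cells it was 108 untreated and 477 with imatinib. FIP1L1-PDGFRA cells gave 85.4 untreated and 339 with the drug. Both treated fusion arrays were thus far above every other array, and the vector pair was level. The ratio was 4.42-fold in ETV6-PDGFRB cells, the highest of all 6852 genes measured there, and 3.98-fold in FIP1L1-PDGFRA cells, rank 7 of 6743. In limma Ccng2 rose by 2.07 ± 0.09 on the log2 scale (moderated SE, n = 2 fusion lines with the vector pair counted as spread, adjusted p = 0.00156). A further probe set of Ccng2 gave 39.4 and 39.6 in vector cells, 59.6 and 213 with ETV6-PDGFRB, and 45.5 and 169 with FIP1L1-PDGFRA. Its ratios, 3.57-fold and 3.72-fold, were close to those of the first.

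The promoter of Ccng2 is shown because this gene had the largest response of the members. The window, from RefSeq, runs from 250 bases before the gene start to 50 after it, at chr5:93267323-93267622 on the plus strand of GRCm38.p6. Capitals mark the letters CAAAACA, the core of an element through which insulin represses genes and which FOXO proteins can bind.

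Ccng2: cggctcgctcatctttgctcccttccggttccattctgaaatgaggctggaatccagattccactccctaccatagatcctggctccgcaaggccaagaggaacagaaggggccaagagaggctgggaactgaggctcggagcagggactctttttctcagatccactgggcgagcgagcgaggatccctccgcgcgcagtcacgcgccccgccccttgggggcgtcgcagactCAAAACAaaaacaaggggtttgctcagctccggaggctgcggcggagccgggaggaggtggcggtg

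Trp53inp1 encodes a p53-induced nuclear protein that takes part in stress responses and autophagy. Vector cells gave 55.8 without and 59.8 with imatinib. ETV6-PDGFRB cells went from 54.2 to 187, and FIP1L1-PDGFRA cells from 60.2 to 156 under the drug. The 4 arrays other than those of treated fusion cells lay within 54.2 and 60.2, and both treated fusion arrays were clear of them. The ratio was 3.45-fold in ETV6-PDGFRB cells (rank 5) and 2.59-fold in FIP1L1-PDGFRA cells (rank 39), and the fitted rise was 1.58 ± 0.13 (limma adjusted p = 0.00421). The other probe set of this gene was below the floor on all 6 arrays, at 6.44 to 16.6, and gives no ratio.

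Ulk1 encodes the kinase that starts autophagy and that mTOR, downstream of PI3K, holds in check. Its signals were near the floor, at 25.6 and 29.0 in vector cells. With ETV6-PDGFRB they went from 22.3 to 50.1, a 2.25-fold difference, and from below the floor, at 14.5, to 50.6 in FIP1L1-PDGFRA cells, at least 2.52-fold higher. Again only the treated fusion arrays were high. Ulk1 rose with imatinib in the limma fit (log2 change 1.25, adjusted p = 0.00467), but the array at the floor adds no spread, so no SE is given. With the floor at the 60th percentile, 42.6, the log2 change was 0.24 and did not pass (limma adjusted p = 0.0629, with a range of 0.00397 to 0.0948 over all alternatives). The other probe set of Ulk1 was below the floor throughout, at 1.53 to 15.6.

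Foxo3 encodes a FOXO factor of blood stem cells and lymphoid cells. It was 126 and 136 in vector cells without and with imatinib. ETV6-PDGFRB cells read 152 and 238, and FIP1L1-PDGFRA cells read 109 and 191. The treated fusion arrays were the highest of the 6, but the gap to the untreated ETV6-PDGFRB array was small, and the ratios were 1.56-fold and 1.75-fold. The fitted rise was 0.73 ± 0.10 (limma adjusted p = 0.0103), and without the line block it did not pass (adjusted p = 0.0627, with a range of 0.00523 to 0.1001 over all alternatives). A further probe set read 54.3 and 69.0 in vector cells, 60.3 and 95.5 with ETV6-PDGFRB, and 56.4 and 79.3 with FIP1L1-PDGFRA. On it the vector pair differed by 1.27-fold and the FIP1L1-PDGFRA pair by 1.41-fold, and in a limma fit over every probe set, in which 9.99% of 10912 probe sets rose, it did not pass (log2 change 0.58 ± 0.15, adjusted p = 0.0506). The remaining Foxo3 probe set was below the floor on every array, at 0.978 to 4.45.

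Sesn1 encodes sestrin 1, which restrains mTOR and protects against oxidative stress. Its signals were 103 and 111 in vector cells, 127 and 183 with ETV6-PDGFRB, and 87.6 and 151 with FIP1L1-PDGFRA. Treated fusion arrays were again the highest, with ratios of 1.44-fold and 1.72-fold and a rise of 0.66 ± 0.11 (limma adjusted p = 0.0156), which did not pass without the line block (adjusted p = 0.0867, with a range of 0.00735 to 0.112 over all alternatives). The 3 probe sets of Sesn1 disagreed on the size. Another went from 39.0 to 114 with ETV6-PDGFRB, a 2.92-fold difference, and from 45.9 to 66.3 with FIP1L1-PDGFRA, 1.44-fold. The last went from 65.7 to 76.8, 1.17-fold, and from 41.5 to 65.4, 1.58-fold, and did not pass in the fit over every probe set (log2 change 0.44 ± 0.13, limma adjusted p = 0.0729). Which line responded more therefore depended on the probe set, and on all 3 the vector pair differed by at most 1.08-fold.

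Sesn1 has a pair of start sites in RefSeq, and the upstream one is shown because it was the only window of a member with the forkhead core. This window lies at chr10:41810324-41810623 on the plus strand of GRCm38.p6. Capitals mark TGTTTAC, the reverse complement of GTAAACA, the core to which forkhead proteins bind.

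Sesn1: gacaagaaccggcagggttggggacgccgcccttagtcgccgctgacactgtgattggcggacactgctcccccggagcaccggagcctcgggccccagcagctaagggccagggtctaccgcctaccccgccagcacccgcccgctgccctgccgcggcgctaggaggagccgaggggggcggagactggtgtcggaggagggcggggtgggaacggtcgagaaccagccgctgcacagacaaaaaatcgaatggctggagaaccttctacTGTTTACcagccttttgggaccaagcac

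The motif search covered GTAAACA and CAAAACA on both strands of the 10 windows found for 9 members, and Trp53inp1 is named only. GTAAACA was in 3.65% of all 32851 windows of 300 bases and CAAAACA in 6.28%. Among the members GTAAACA occurred in the upstream Sesn1 window alone, 22 bases after the start, and CAAAACA in those of Ccng2, 16 bases before the start, and Irs2, 37 bases before it. Over all genes with a window, GTAAACA was in 33 of 761 genes that rose, 24 of 697 that fell and 123 of 4189 that did not pass. For CAAAACA the counts were 48, 33 and 212. A match is a description of letters, and FOXO sites outside these windows were not searched.

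Cited2, a transcriptional cofactor gene and a reported FOXO3 target, moved against the other members. Its main probe set read 1256 and 1224 in vector cells. With ETV6-PDGFRB it went from 1075 to 770.2, 1.40-fold lower, and with FIP1L1-PDGFRA from 1191 to 962, 1.24-fold lower. The treated fusion arrays were the lowest of the 6. Cited2 fell by 0.39 ± 0.09 (limma adjusted p = 0.0363), but it did not pass under 5 of 10 alternatives that kept both lines. The other Cited2 probe set read 283 and 218 with ETV6-PDGFRB and 387 and 385 with FIP1L1-PDGFRA, and did not pass (log2 change -0.19 ± 0.12, limma adjusted p = 0.306 over every probe set).

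**Figure D2:**
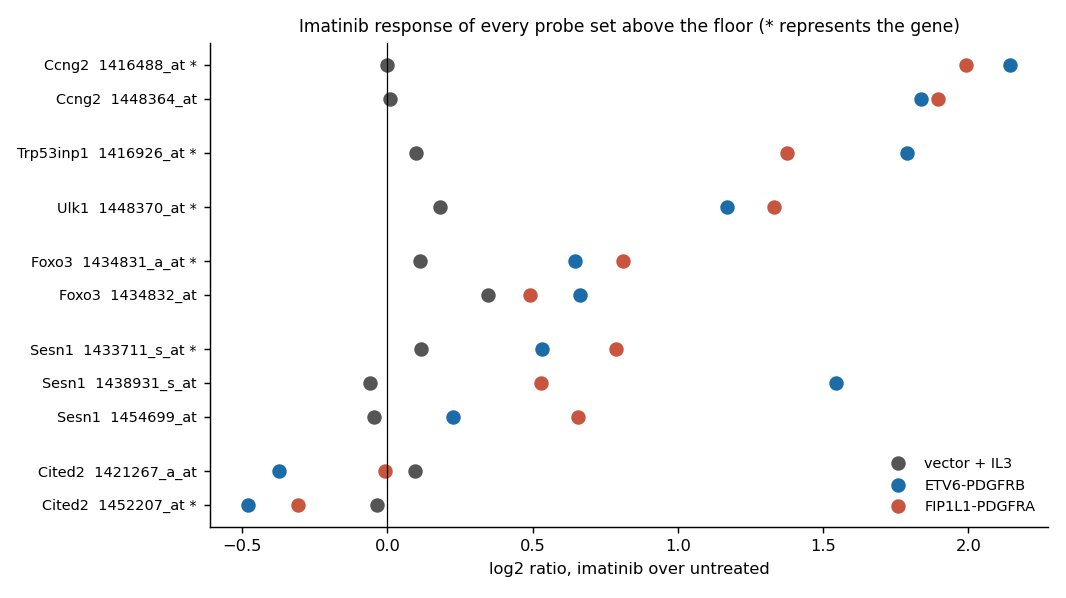
Log2 ratio of imatinib over untreated signal for each of the 11 member probe sets above the floor, with 1 point per line and an asterisk at the probe set that represents the gene. Probe sets of Ccng2 lie close together near 2, while those of Sesn1 spread from 0.23 to 1.54 in ETV6-PDGFRB cells.

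Foxo1, Irs2 and Klf2 were below the floor on all 6 arrays. Foxo1, the other FOXO factor on the list, has 4 probe sets, and the highest of their 24 signals was 14.1. Irs2, an adaptor of the insulin receptor that FOXO proteins induce, had 1 probe set at 0.769 to 1.45, and Klf2, a factor of quiescent lymphocytes, 1 probe set at 0.688 to 8.62. No direction can be read from such signals, and whether the transcripts were absent or the probe sets poor was not tested.

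In vector cells with IL3, imatinib left the 6 measured members within a log2 ratio of -0.04 (Cited2) and 0.18 (Ulk1). None passed 2-fold, as for all but 9 of 6674 genes there, 0.0749% being at least 2-fold higher and 0.0599% lower. In the fusion lines Ccng2, Trp53inp1 and Ulk1 passed 2-fold in each, all higher with imatinib. Of all genes, 1.61% were that much higher and 2.86% lower in the ETV6-PDGFRB pair, against 2.19% and 2.97% in the FIP1L1-PDGFRA pair. A limma test of the fusion response minus the vector response gave 0 of 6808 genes (0%), with 1179 at an unadjusted p under 0.05 and 4 members among them. For Ccng2 the difference was 2.07 ± 0.20 (limma adjusted p = 0.139), for Trp53inp1 1.48 ± 0.25 (adjusted p = 0.163) and for Foxo3 0.62 ± 0.20 (adjusted p = 0.254). With 1 vector pair, the statement that the members responded in fusion cells and not in vector cells rests on single arrays.

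Without imatinib, Ccng2 was already higher in the fusion lines than in vector cells, by 1.94-fold with ETV6-PDGFRB and 1.54-fold with FIP1L1-PDGFRA. It was within 2-fold in both, as were all other members, against 2.24% and 1.82% of genes at least 2-fold higher and 0.736% and 0.327% lower. Foxo3 and Sesn1 were 1.21-fold and 1.23-fold higher in ETV6-PDGFRB cells but lower in FIP1L1-PDGFRA cells, by 1.16-fold and 1.18-fold. Trp53inp1 was within 1.08-fold in both lines. These untreated ratios share the vector array and had no test, and the fusion gene, selection and IL3 supply cannot be told apart.

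With imatinib in every line, Ccng2 was 8.58-fold higher with ETV6-PDGFRB and 6.11-fold higher with FIP1L1-PDGFRA than in vector cells, and Trp53inp1 3.13-fold and 2.61-fold. At least 2-fold higher were 4.43% and 2.23% of all genes, and 3.72% and 2.38% were lower. Ulk1 was 1.73-fold and 1.74-fold higher, Foxo3 1.74-fold and 1.40-fold, and Sesn1 1.64-fold and 1.35-fold. Treated fusion cells thus exceeded the vector cells for these 5 genes, and Cited2 was 1.59-fold and 1.27-fold lower.

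**Figure D3:**
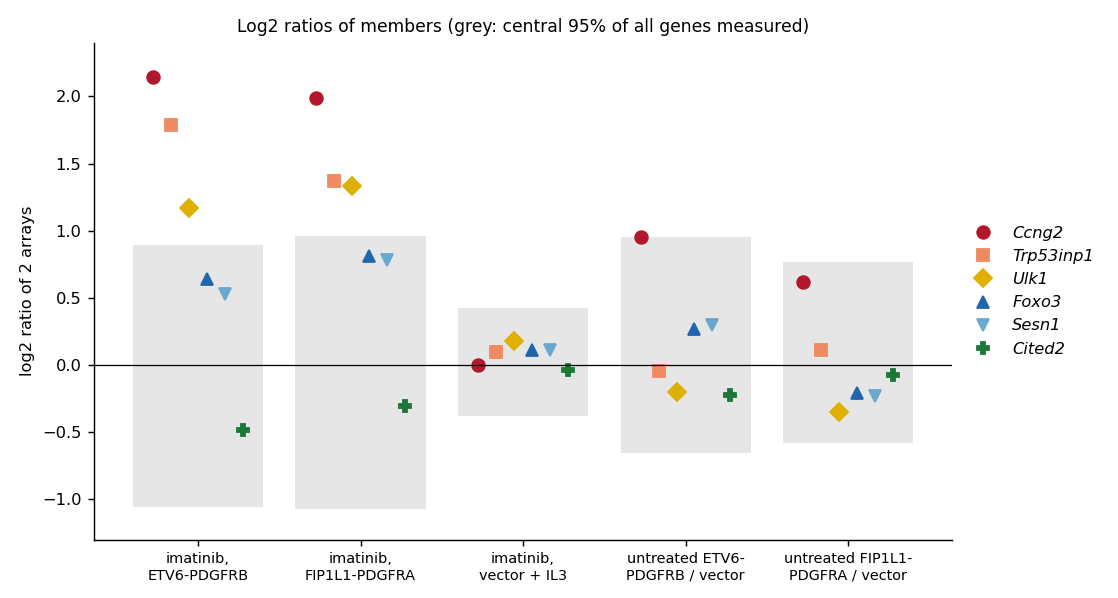
Log2 ratios of the 6 measured members for imatinib in each line and for the untreated fusion lines over untreated vector cells, with grey bars for the range that held the central 95% of all genes measured. Ccng2, Trp53inp1 and Ulk1 lay above the bar for imatinib in both fusion lines, and no member left the bar in the vector pair. For untreated ETV6-PDGFRB over vector cells Ccng2 lay just above the bar, at 0.957 against 0.954.

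Other FOXO targets, a list of 34 genes held more genes that rose than genes that fell. Of 19 tested, 9 rose, 1 fell and 9 did not pass, with a median log2 change of 0.45. By the same rule 13.5% of all genes rose and 12.4% fell. The cell cycle repressor gene Rbl2 went from 93.1 to 168 with ETV6-PDGFRB and from 64.4 to 151 with FIP1L1-PDGFRA (1.04 ± 0.12, limma adjusted p = 0.00801). Ypel3, a growth suppressor gene, went from 81.3 to 162 and from 43.0 to 134. The catalase gene Cat, of peroxide defence, rose by 0.68 ± 0.10 (adjusted p = 0.012). The growth arrest gene Gadd45a rose by 1.33 ± 0.17 and the death gene Bbc3 by 0.92 ± 0.09. The listed gene that fell, the cyclin gene Ccnd2, is one that FOXO proteins repress, and it went from 788 to 312 and from 765 to 361. Bcl2l11, which encodes the death protein BIM, did not pass, at 338 and 325 with ETV6-PDGFRB and 301 and 336 with FIP1L1-PDGFRA, and Sesn3 was not tested.

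Among genes of the PI3K, AKT and mTOR pathway itself, 24 of 39 listed were tested. In the main limma fit 2 of these rose, 3 fell and 19 did not pass, with a median log2 change of -0.07. The share called there was not above the 25.8% of all genes. With scaling to the hybridization controls 2 rose and 9 fell, with a median of -0.30, against 395 and 1880 of 6786 genes. The catalytic subunit genes of leukocyte PI3K both fell. Pik3cd, which encodes p110 delta, went from 291 to 60.8 with ETV6-PDGFRB and from 239.7 to 81.4 with FIP1L1-PDGFRA, against 366 and 411 in vector cells (-1.91 ± 0.18, limma adjusted p = 0.00608). Pik3cg, which encodes p110 gamma, went from 292 to 167 and from 361 to 184 (-0.89 ± 0.09, adjusted p = 0.00695). Inpp5d, which encodes the lipid phosphatase SHIP1 that breaks down the product of PI3K, rose from 148 to 252 and from 127 to 199 (0.71 ± 0.09, adjusted p = 0.0087). The growth factor receptor gene Igf1r rose by 0.63 ± 0.11 (adjusted p = 0.0189), and Gab2, an adaptor that binds PI3K, fell (log2 change -0.45, adjusted p = 0.0308, 1 fusion array below the floor), a call lost in 3 of the 7 alternatives in which it was tested. Pik3ca (79.2 and 58.4, 77.7 and 70.7), Pik3r1 (32.6 and 47.7, 31.3 and 35.7), Akt1 (203 and 179, 193 and 185) and Tsc1 (35.6 and 57.0, 32.7 and 45.2) did not pass, values being untreated and treated in ETV6-PDGFRB and then FIP1L1-PDGFRA cells.

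Among FOXO relatives and regulators, 1 of 11 tested rose and 1 fell in the main limma fit. That share was not above the 25.8% of all genes called in either direction. With scaling to the hybridization controls 0 rose and 4 fell, against 395 and 1880 of 6786 genes. Sirt1, a deacetylase gene whose product acts on FOXO proteins, rose by 0.71 ± 0.14 (limma adjusted p = 0.0235), a call lost with scaling to the hybridization controls. Ywhag, which encodes a 14-3-3 protein, fell by 0.56 ± 0.09 (adjusted p = 0.014). Foxm1, Usp7, Ywhab and Ywhaz did not pass, with log2 changes of 0.35, -0.25, 0.24 and -0.19. Foxo4 did not exceed the floor on any array.

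Among paralogs of the members and among autophagy partners, the shares called in either direction were not above the 25.8% of all genes in the main limma fit. All of these calls were rises, and 13.5% of all genes rose. The median log2 change was 0.35 for paralogs and 0.30 for autophagy partners, against 0.04 over all genes. Of 12 paralogs tested, 3 rose and 0 fell, namely the erythroid factor gene Klf1, Klf10 (60.3 to 129 and 64.5 to 102) and the second autophagy kinase gene Ulk2 (45.7 to 62.6 and 27.2 to 47.4). The Ulk2 call was lost in 3 of 9 alternatives. Ccng1, the closest relative of Ccng2, was 401 and 596 with ETV6-PDGFRB and 428 and 468 with FIP1L1-PDGFRA and did not pass (0.35 ± 0.13, limma adjusted p = 0.11), nor did Ccni and Klf13 (log2 changes 0.35 and 0.41). Of 20 autophagy genes tested, 4 rose and 0 fell. Rb1cc1, whose product FIP200 is a partner of ULK1, went from 47.3 to 91.5 and from 50.6 to 87.8 (0.87 ± 0.09, adjusted p = 0.00729), and Atg14 rose by 0.61 ± 0.14 (adjusted p = 0.0324), a call lost in 3 of 8 alternatives. Map1lc3b (0.48 ± 0.10) and Gabarap (0.35 ± 0.09) encode proteins of the autophagosome membrane and rose, but lost the call in 4 and 6 of 9 alternatives. Sqstm1 (0.38 ± 0.10, adjusted p = 0.0501) and Atg16l1 (-0.59 ± 0.16, adjusted p = 0.0506) did not pass. With scaling to the hybridization controls 1 autophagy gene rose and 2 fell, and with the mean of probe sets 6 rose and 0 fell, as 6 paralogs rose and 0 fell.

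**Figure D4:**
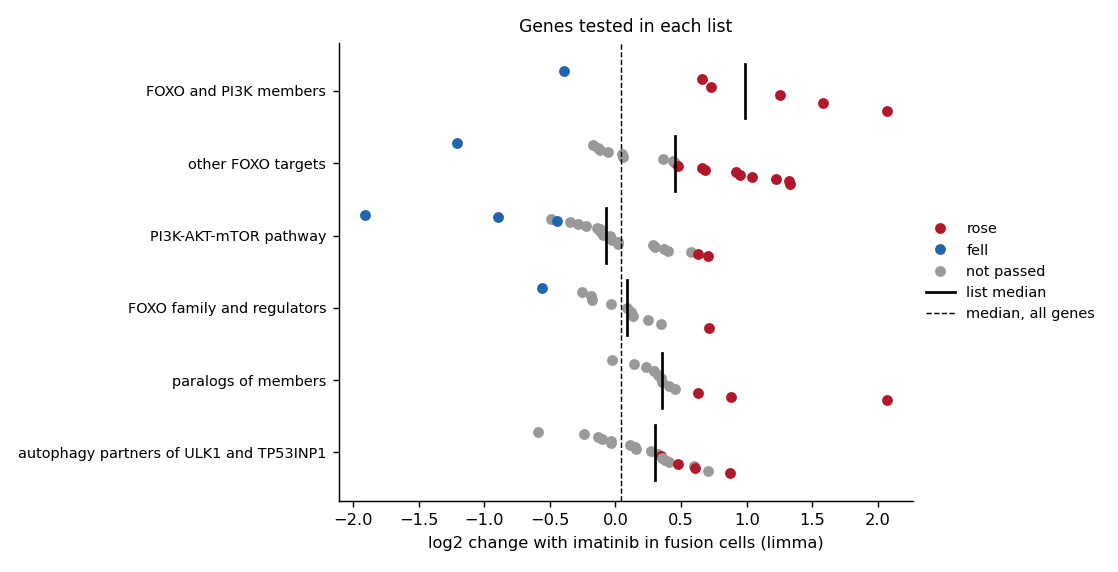
Log2 change with imatinib in fusion cells from the limma fit, 1 point per gene tested, by list, coloured by call (height within a list has no meaning), with list medians as bars and the median of all genes dashed. The member median lies at 0.99 and that of the other FOXO targets at 0.45, against -0.07 for the PI3K, AKT and mTOR pathway. Lists were chosen with earlier results of these data known, so gaps between medians are a description.

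Genes with a pattern most like that of Ccng2 were sought among 6160 genes above the floor on all 6 arrays, by Pearson's r of log2 signals over the 6 arrays. The 5 closest were Eef1akmt1, Stx5a, Nudt7, Mms19 and Tmco6, with r of 0.995 to 0.999, and 235 genes exceeded 0.95. Likeness here is of shape and not of size, since Eef1akmt1 went only from 143 to 172 and from 141 to 164. For the mean of the 5 members above the floor on all arrays, the closest were Nusap1, Cep55, Tcf19, Cops9 and Golm1 (r of 0.996 to 0.999). Here 271 genes exceeded 0.95, and the mean includes Cited2, which moved against the others. Over 6 arrays that share 3 lines such values are a description.

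Summed markers of the erythroid, mast cell and pro-B lists were higher with imatinib in both fusion lines too. The sum of 11 pro-B markers was 128 and 121 in vector cells, 140 and 195 with ETV6-PDGFRB and 120 and 177 with FIP1L1-PDGFRA. Of these markers 8 were below the floor on all arrays. The summed signal of 4 erythroid markers was 241 and 234 in vector cells, 387 and 1027 with ETV6-PDGFRB and 169 and 848 with FIP1L1-PDGFRA, with Epor and Klf1 above the floor on all arrays and Hba-a1 and Alas2 below it on all. The sum of 7 mast cell and basophil markers was 1161 and 998 in vector cells, 4087 and 5576, and 600 and 1166, with Cpa3, Cma1 and Gata2 above the floor on all arrays and Ms4a2 and Tpsb2 below it on all. Each sum weighs bright probe sets most, so it gives no direction for its single genes. Klf1 read 313 and 943 in the first fusion line and 132 and 770.0 in the other, and Epor rose by 0.85 ± 0.21 in the limma fit (adjusted p = 0.0421). The summed myeloid markers were 118 and 120 with ETV6-PDGFRB and 326 and 227 with FIP1L1-PDGFRA, and 5 of these 7 were below the floor on all arrays. The summed T cell markers were 30.3 and 101, and 58.3 and 33.3. Of these 5 markers, 4 were below the floor on all arrays and 0 above it on all. The myeloid sum did not run the same way in both lines, and the T cell sum gives no direction. The part of these markers in the responses of the members was not tested.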

How the data were processed

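The authors deposited 1 intensity signal per probe set and array on a linear scale, which the submitters' processing notes credit to MAS5 in GCOS 1.4.0; the 2% trimmed mean was 100.0 on each array. Genome build, detection calls and array batches are not given in the sources used here. Probe sets with 1 symbol (20393 of 22690; 691 had several, 1606 none) were named through the platform annotation, and a gene was represented by its brightest probe set (mean log2). Signals were floored at 20.1 and put on the log2 scale. limma 3.58.1 (R 4.3.3) fitted line as a block and 1 imatinib coefficient for fusion cells over the 6808 genes that exceeded the floor on 2 or more arrays. The vector pair counted as spread, giving 2 residual and 3.10 prior degrees of freedom. The SEs and p-values rest on the difference between the fusion responses, the vector pair and variance shared over all genes, not on replicate cultures. The code was tested on simulated data. Named genes were the members, up to 6 genes per list with the lowest adjusted p and 7 listed genes. Members and lists were chosen with earlier results of these data known. Alternatives changed the floor (40th, 60th percentile, or a pseudocount of 20), scaling, probe sets, arrays, filter and block. Promoters came from RefSeq (GRCm38.p6). Python 3.11.15 with pandas 2.3.3 was used.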

Additional observations from a re-analysis of the deposited data

How the results depend on the processing

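Ccng2 and Trp53inp1 kept their rise under all 10 alternatives with both fusion lines, Foxo3 and Sesn1 under 9 of them and Ulk1 under 8 of the 9 in which it was tested. Of the 29 called genes in all lists, 16 kept the call in each of 9 alternatives (all but the fit over every probe set) in which they were tested and 0 changed direction. The members that rose numbered 5, but 3 without the line block and 0 without either fusion line, where the fit called 0 genes of any kind. The member that fell numbered 1, but 0 with the 4 fusion arrays alone, without the line block, without either fusion line, with the floor at the 40th percentile, with the pseudocount of 20 and with the mean of probe sets. With the mean of probe sets, which averages in probe sets below the floor, members past 2-fold numbered 1 in place of 3 for imatinib in each fusion line and 1 in place of 2 in each treated comparison with vector cells. With the floor at the 60th percentile they numbered 2 in place of 3 for imatinib in each fusion line. In ETV6-PDGFRB cells they also numbered 2 with the pseudocount and with scaling to the hybridization controls. Ulk1 was the member lost with that floor, with the pseudocount and with that scaling. With the mean of probe sets both Trp53inp1 and Ulk1 were under 2-fold for imatinib in each fusion line. Their log2 ratios were then 0.89 and 0.58 with ETV6-PDGFRB, and 0.69 and 0.67 with FIP1L1-PDGFRA. For treated ETV6-PDGFRB over treated vector cells Trp53inp1 was then at 0.82. The test of fusion against vector response gave 10 genes with the floor at the 60th percentile, 0 of them members, by limma (lowest adjusted p of a member 0.058). Scaling to the hybridization controls lowered the median change of all genes by 0.22 (log2) and gave 395 genes that rose and 1880 that fell, against 916 and 841, with 5 members rising and 1 falling as before. Over all genes, 345 rose and 451 fell without the line block, 588 and 626 with the floor at the 40th percentile, and 539 and 566 with the pseudocount. Genes past 2-fold in the vector pair were 49 and 2 with the floor at the 40th and 60th percentile, against 9. The median log2 change of the members went from 0.99 to 0.57 with the pseudocount, and that of the other FOXO targets from 0.45 to 0.03. Low signal limits Ulk1, and nothing can be said of Foxo1, Irs2 and Klf2.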
